A study of Rattus norvegicus with 6 samples.

Results

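The troponin genes and the striated muscle actin genes were examined in 6 RNA-seq libraries of rat myocardial tissue. The 10 genes were taken by symbol from the 33509 genes of the deposited count table: the troponin C genes Tnnc1 and Tnnc2, the troponin I genes Tnni1, Tnni2 and Tnni3, the troponin T genes Tnnt1, Tnnt2 and Tnnt3, and the actin genes Acta1 and Actc1. All 10 had reads in at least 5 libraries. The XHT group held 3 libraries (XHT 1 to 3) from Sprague-Dawley rats with an induced acute myocardial infarction that were given XHT; the study's title names the agent Xinhuitong. The MOD group held 3 libraries (MOD 1 to 3) from Sprague-Dawley rats with the same infarction model, for which no XHT was named. Every library thus came from an infarcted heart, and there was no library of an uninjured heart. The dose of XHT, the time since infarction, the age of the rats and the part of the heart sampled were not given in the sources used here. Nothing says whether each library was a separate animal, so the p-values measure the spread between these libraries, which may be technical.

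Muscle contraction is switched on at the thin filament, a polymer of actin decorated with tropomyosin and troponin. Calcium binds troponin C, which loosens the hold of the inhibitory subunit troponin I on actin, while troponin T ties the complex to tropomyosin. Troponin I and T each have cardiac, slow skeletal and fast skeletal forms from separate genes, while troponin C has one gene for fast muscle and one for heart and slow muscle. The adult heart uses Tnnc1 (shared with slow skeletal muscle), Tnni3 and Tnnt2, with cardiac actin Actc1 as its main sarcomeric actin. The skeletal actin Acta1 and the slow troponin I gene Tnni1 belong to the fetal heart programme, Acta1 is also made in the adult heart, and cardiac troponin I and T are the blood markers used to diagnose infarction.

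Several of these genes lie side by side in the genome, which places a cardiac form next to a skeletal one. By the coordinates in the deposited table, whose genome build was not given, cardiac Tnni3 (chr1:72882806-72886488) and slow skeletal Tnnt1 (chr1:72889270-72899659) were 2.8 kb apart with no gene between them. Slow skeletal Tnni1 (chr13:52624878-52637297) and cardiac Tnnt2 (chr13:52662996-52680990) were 25.7 kb apart with 1 gene, Lad1, between them. The fast skeletal pair Tnni2 (chr1:215609036-215611658) and Tnnt3 (chr1:215666628-215683628) was 55.0 kb apart with 2 genes, Lsp1 and Prr33, between them. The actin genes stood alone, Acta1 at chr19:56674074-56677084 and Actc1 at chr3:105507403-105512939, both on the minus strand. Tnnc1 lay at chr16:7292096-7295465 on the plus strand, and Tnnc2 lay at chr3:161243587-161246351 on the minus strand. All 10 were annotated as protein coding genes.

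Promoter sequence was read for the neighbours whose levels differed most and for both actins, because their RNA levels are set side by side below. RefSeq promoters (build GRCr8) were matched for 8 of the 10 genes, giving 9 promoters since Tnnt2 has 2 starts; Tnnc1 and Tnnt3 had no entry. The 150 bases before the annotated start are given 5′ to 3′ on the strand of the gene. The windows were chr1:78342421-78342570 (plus strand) for Tnni3, chr1:78348885-78349034 (plus) for Tnnt1, chr13:49781379-49781528 (plus) for Tnni1, chr13:49818973-49819122 (plus) for the first start of Tnnt2, chr3:121271828-121271977 (minus) for Actc1 and chr19:68784195-68784344 (minus) for Acta1. Capitals mark matches to 5 motifs that muscle promoters are known for: the CArG box bound by serum response factor, the MEF2 box, the MCAT core CATTCC bound by TEAD factors, the GATA core AGATAA and the TATA core TATAAA.
Tnni3: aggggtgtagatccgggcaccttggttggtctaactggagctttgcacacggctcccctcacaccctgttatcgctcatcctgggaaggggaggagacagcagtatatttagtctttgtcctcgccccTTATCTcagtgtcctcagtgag
Tnnt1: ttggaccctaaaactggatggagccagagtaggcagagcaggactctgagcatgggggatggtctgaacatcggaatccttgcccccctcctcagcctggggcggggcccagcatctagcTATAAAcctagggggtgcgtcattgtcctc
Tnni1: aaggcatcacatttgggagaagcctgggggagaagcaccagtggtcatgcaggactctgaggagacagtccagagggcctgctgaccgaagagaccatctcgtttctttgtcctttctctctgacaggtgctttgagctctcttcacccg
Tnnt2 first start: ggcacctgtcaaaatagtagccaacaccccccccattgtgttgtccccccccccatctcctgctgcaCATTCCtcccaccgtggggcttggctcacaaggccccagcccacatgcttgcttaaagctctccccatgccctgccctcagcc
Actc1: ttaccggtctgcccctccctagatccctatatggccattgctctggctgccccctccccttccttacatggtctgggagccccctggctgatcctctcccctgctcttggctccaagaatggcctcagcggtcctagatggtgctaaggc
Acta1: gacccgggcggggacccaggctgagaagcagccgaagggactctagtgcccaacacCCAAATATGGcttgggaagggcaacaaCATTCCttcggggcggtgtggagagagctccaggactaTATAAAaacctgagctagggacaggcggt

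The motifs were searched on both strands of the 250 bases before each start, and none of the printed matches overlapped another motif. The Acta1 promoter held 3 of the 5 motifs: a CArG box 94 to 85 bases before the start, the MCAT core 67 to 62 bases before it and the TATA core 29 to 24 bases before it. A CArG box was present in 1.5% of 33469 rat promoters, the MCAT core in 12.1% and the TATA core in 12.9%. The Tnnt2 promoter held the MCAT core 83 to 78 bases before its first start and, outside the printed window, the GATA core on the opposite strand 220 to 215 bases before it. Tnni3 held the GATA core on the opposite strand (TTATCT as printed) 22 to 17 bases before its start, and 10.3% of all promoters held that core. Tnnt1, the neighbour of Tnni3, held the TATA core 30 to 25 bases before its start. The promoters of Actc1 and Tnni1 held none of the 5 letter patterns in this window, and no troponin or actin promoter searched held the MEF2 box, which 2.96% of all promoters held. These matches describe letters and not bound sites.

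The libraries held 17283657, 17359228 and 17724689 counted reads in XHT 1, 2 and 3, and 17041403, 16550007 and 17638782 in MOD 1, 2 and 3. The MOD group was not uniform. On the first principal component, which carried 74.4% of the variance, XHT 1, 2 and 3 scored -87.4, -46.1 and -90.4, against 98.5, 105.7 and 19.8 in MOD 1, 2 and 3, so MOD 3 lay between the other MOD libraries and the XHT libraries. Fold changes and ratios are therefore given with MOD 3 and without it. The tissue label was checked with 13 cardiomyocyte genes, all of which had reads in every library. Their summed level was 50999, 35730 and 40257 CPM (reads of a gene scaled to one library total, with TMM scaling between libraries) in XHT 1, 2 and 3, against 2539, 2276 and 22081 CPM in MOD 1, 2 and 3.

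The cardiac troponins and sarcomeric actins made up far more of the RNA in every XHT library than in MOD 1 and MOD 2. The 10 genes together took 2.27%, 1.80% and 2.38% of all counts in XHT 1, 2 and 3, against 0.201%, 0.216% and 1.69% in MOD 1, 2 and 3. Tnnc1, Tnni3, Tnnt2, Actc1 and Acta1 supplied between 98.7% and 99.98% of those counts in each library, and the other 5 genes together had only 104 to 109 counts per XHT library and 149 to 458 per MOD library. MOD 3 stood close to the XHT libraries for the abundant genes, while the fast skeletal genes Tnnt3 and Tnni2 ran the other way. In bulk tissue, fewer cells of a type and less RNA per cell cannot be told apart.

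**Figure D1:**
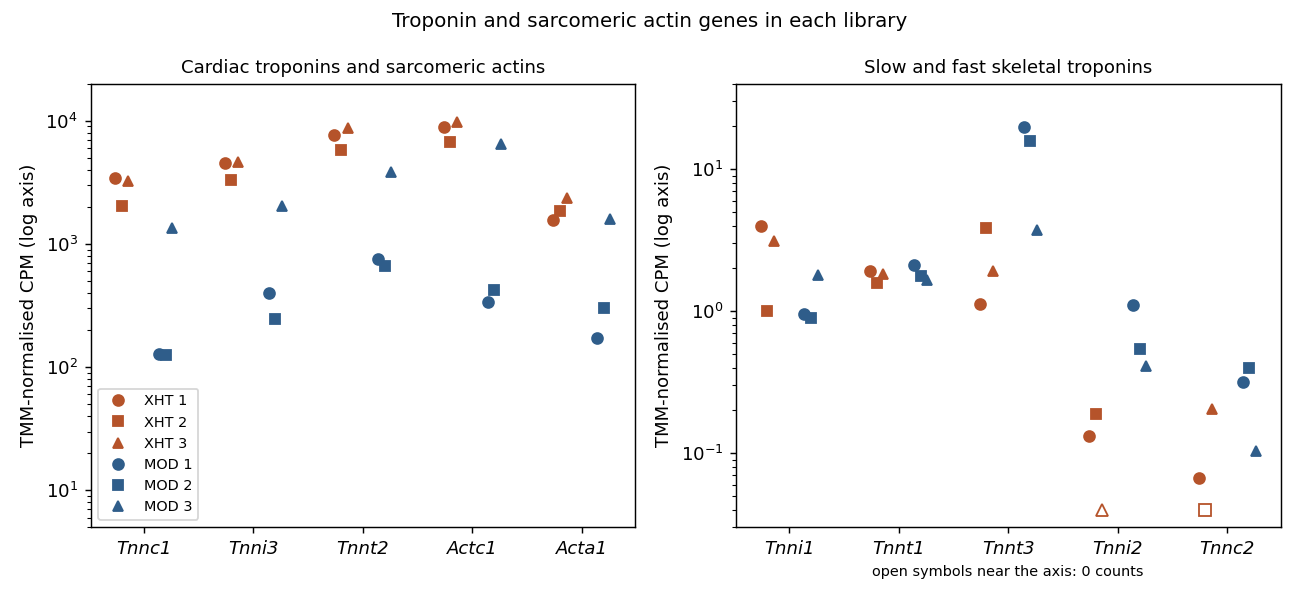
TMM-normalised CPM on log axes of each troponin and sarcomeric actin gene, 1 point per library, with the XHT libraries left of the MOD libraries. For the 5 abundant genes on the left MOD 1 and MOD 2 lie lowest and MOD 3 lies near or among the XHT points; on the right Tnnt3 and Tnni2 are highest in MOD 1, and open symbols mark libraries with 0 counts.

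Among the cardiac troponins, Tnnc1, the calcium sensor, measured 3420, 2024 and 3263 CPM in XHT 1, 2 and 3, against 129, 124 and 1349 CPM in MOD 1, 2 and 3. Every XHT library was above every MOD library, and MOD 3 was 10.7 times the mean of the other MOD libraries. The fitted log2 fold change, XHT over MOD, was 2.44 ± 0.98 (SE, n = 3 each; adjusted p = 0.0963, edgeR quasi-likelihood test with Benjamini-Hochberg adjustment over 14488 genes), which did not pass 0.05.

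Tnni3, the inhibitory subunit found in adult heart, measured 4501, 3285 and 4643 CPM in XHT 1, 2 and 3, against 397, 245 and 2043 CPM in MOD 1, 2 and 3. The groups did not overlap, and MOD 3 was 6.37 times the mean of MOD 1 and MOD 2. Its log2 fold change was 2.21 ± 0.82 (SE, n = 3 each; edgeR adjusted p = 0.0791). In the table's annotation the last bases of Dnaaf3, on the same strand, overlap the start of Tnni3, but Dnaaf3 had only 1 to 6 counts in XHT libraries and 5 to 22 in MOD libraries.

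Tnnt2, the cardiac tropomyosin-binding subunit, had the highest level per length of the troponins in every library and measured 7599, 5796 and 8723 CPM in XHT 1, 2 and 3, against 751, 657 and 3857 CPM in MOD 1, 2 and 3. Again all XHT libraries lay above all MOD libraries. Its log2 fold change was 2.07 ± 0.79 (SE, n = 3 each; edgeR adjusted p = 0.0832).

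Actc1, the cardiac alpha-actin, measured 8956, 6691 and 9706 CPM in XHT 1, 2 and 3, against 335, 419 and 6515 CPM in MOD 1, 2 and 3. XHT 2 was only just above MOD 3, whose level was 17.3 times that of the other MOD libraries, the widest gap among the 10 genes. The log2 fold change was 1.80 ± 1.14 (SE, n = 3 each; edgeR adjusted p = 0.254).

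Acta1, the skeletal alpha-actin, measured 1576, 1839 and 2338 CPM in XHT 1, 2 and 3, against 172, 300.0 and 1603 CPM in MOD 1, 2 and 3. Here the groups overlapped, since XHT 1 was below MOD 3. The log2 fold change was 1.47 ± 0.81 (SE, n = 3 each; edgeR adjusted p = 0.195). The actin genes are nearly identical in their coding sequence, so the split of reads between Acta1, Actc1 and the other actins by the authors' counting is uncertain.

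The slow skeletal genes were measured near 1 to 4 CPM. Tnni1, the slow skeletal and fetal heart troponin I, had 60, 16 and 46 counts (3.99, 1.005 and 3.13 CPM) in XHT 1, 2 and 3, against 18, 18 and 35 counts (0.948, 0.889 and 1.80 CPM) in MOD 1, 2 and 3. XHT 2 lay inside the MOD range, and the log2 fold change of 1.15 ± 0.57 (SE, n = 3 each) had an edgeR adjusted p of 0.157.

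Tnnt1, the slow skeletal troponin T, had 29, 25 and 27 counts (1.93, 1.57 and 1.84 CPM) in XHT 1, 2 and 3, against 40, 36 and 32 counts (2.11, 1.78 and 1.65 CPM) in MOD 1, 2 and 3. The groups overlapped and the log2 fold change was -0.05 ± 0.32 (SE, n = 3 each; edgeR adjusted p = 0.912). Over the 6 libraries Tnnt1 spanned 1.57 to 2.11 CPM, while its neighbour Tnni3, 2.8 kb away, spanned 245 to 4643 CPM. The sign of so small a fold change was not fixed: it was 0.041 without XHT 2 and 0.052 without MOD 1.

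Of the fast skeletal genes, Tnnt3 was the only one of the 10 genes to pass the test with all 6 libraries, and it fell. This troponin T gene had 17, 61 and 28 counts (1.13, 3.83 and 1.91 CPM) in XHT 1, 2 and 3, against 373, 319 and 72 counts (19.7, 15.8 and 3.70 CPM) in MOD 1, 2 and 3. MOD 1 and MOD 2 stood well above the rest, and the groups overlapped narrowly because XHT 2 was above MOD 3. The log2 fold change was -2.50 ± 0.69 (SE, n = 3 each; edgeR adjusted p = 0.0360). Over 12 alternative fits the adjusted p ranged between 0.00154 and 0.117 and the log2 fold change between -3.08 and -2.09, so the direction held in each. The call was lost when XHT 1 (adjusted p = 0.113), XHT 3 (0.117), MOD 1 (0.114) or MOD 2 (0.0971) was left out of the edgeR fit; those fits called 0.0267%, 1.92%, 2.55% and 3.87% of all genes lower.

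Tnni2, the fast skeletal troponin I, had 2, 3 and 0 counts in XHT 1, 2 and 3, against 21, 11 and 8 counts in MOD 1, 2 and 3. All XHT libraries were below all MOD libraries, but these counts were under the filter and the gene was not tested. Tnnc2, the fast skeletal troponin C, had 1, 0 and 3 counts in XHT 1, 2 and 3, against 6, 8 and 2 counts in MOD 1, 2 and 3, was not tested either, and overlapped between the groups. A count of 0 allows up to 3 counts, which was 0.204 CPM in XHT 3 and 0.188 CPM in XHT 2, so a lower level could not be told at this depth.

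The gene that lies next to Tnnt3 on the side of Tnni2 is Lsp1, a gene of white blood cells. Chosen after its values were seen, it had 22.5, 45.3 and 30.0 CPM in XHT 1, 2 and 3, against 172, 223 and 102 CPM in MOD 1, 2 and 3. Its levels thus ran the same way as those of Tnnt3 and Tnni2 across the groups. Prr33, also between them, had 1.43 to 2.83 CPM in XHT libraries and 2.21 to 4.12 CPM in MOD libraries. Whether reads of a neighbouring gene or another cell type entered the counts of Tnnt3 was not tested.

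Counted over the group, 0 of the 8 tested troponin and actin genes rose and 1 fell with all 6 libraries by the edgeR test, against 12.4% of all 14488 tested genes higher and 16.1% lower in XHT. At an unadjusted p under 0.05, 3 of the 8 (Tnnc1, Tnni3 and Tnnt2) were higher, against 21.1% of all tested genes. The DESeq2 Wald test called the same 3 higher with adjusted p of 0.00976, 0.00561 and 0.00522, against 18.8% of all genes higher and 18.9% lower; over 12 alternatives the adjusted p of these 3 genes ranged between 0.000273 and 0.219. The authors' deposited table gave log2 fold changes of 2.48 for Tnnc1, 2.25 for Tnni3 and 2.11 for Tnnt2, with adjusted p of 0.00969, 0.00564 and 0.00536, and -2.48 for Tnnt3 with 0.00160. The authors' deposited table called 13.4% of 19690 genes higher and 13.7% lower, and it listed no p-value for Actc1. In 4 of the 10 genes (Tnnc1, Tnni3, Tnnt2 and Actc1) all XHT libraries were above all MOD libraries, which held for 24.7% of the genes tested, and Tnni2 was the reverse, which held for 26.6%. The median log2 fold change of the 8 tested genes was 1.64, against -0.02 for all tested genes.

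MOD 3 decided most of these calls. Without it, the 5 abundant genes all rose in XHT, with log2 fold changes of 4.53 ± 0.37 for Tnnc1, 4.50 ± 0.38 for Actc1, 3.71 ± 0.37 for Tnni3, 3.40 ± 0.35 for Tnnt2 and 3.04 ± 0.36 for Acta1 (SE, 3 XHT and 2 MOD libraries). Their edgeR adjusted p were between 0.000273 and 0.000913, whereas over the alternatives they reached 0.459. There were 12 alternatives, of which 11 gave an adjusted p for Actc1. The fit without MOD 3 was singled out after MOD 3 was seen to lie nearer XHT. Its adjusted p are therefore not independent support for a rise. Tnnt3 fell by 2.93 on the log2 scale (adjusted p = 0.00253). Tnni2 entered that fit only through its counts in MOD 1 and MOD 2, so its result there is not given as a call. Of the 8 genes tested with all libraries, 5 rose and 1 fell, in a fit where 23.3% of all genes were higher and 22.9% lower. Set against MOD 3 alone, the XHT mean was 2.15 times as high for Tnnc1, 2.03 for Tnni3, 1.91 for Tnnt2, 1.297 for Actc1 and 1.20 for Acta1, with no test since MOD 3 is 1 library.

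**Figure D2:**
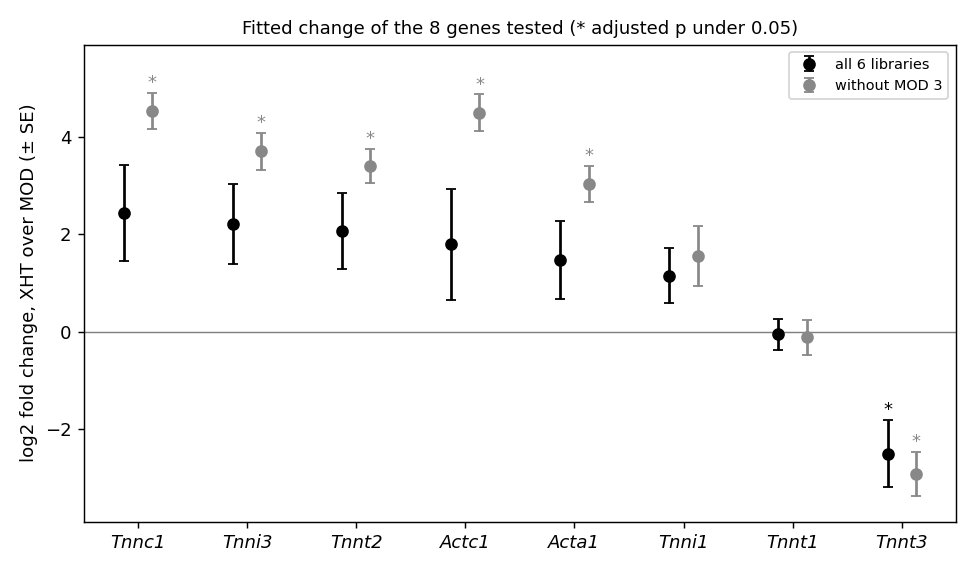
Fitted log2 fold change, XHT over MOD, of the 8 tested genes with bars of ± 1 SE, for all 6 libraries (black) and without MOD 3 (grey); asterisks mark an adjusted p under 0.05. Without MOD 3 the 5 abundant genes lie between 3.04 and 4.53, above their values with all libraries, while Tnnt1 stays near 0 and Tnnt3 lies below 0 in both.

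Levels per length were taken as RPKM from TMM-scaled counts and the deposited gene lengths. In both groups Tnnt2, Actc1, Tnni3, Tnnc1 and Acta1 averaged highest, with Tnnt2 and Actc1 in reversed places. In XHT libraries Tnnt2 averaged 6098 ± 1221 RPKM, Actc1 5676 ± 1054, Tnni3 5166 ± 931, Tnnc1 3522 ± 928 and Acta1 1335 ± 270 (SD, n = 3), and each of the first 4 was above the next in every XHT library, although the ranges of neighbours among the first 4 in this order overlapped. In MOD libraries Actc1 averaged 1627 ± 2380 RPKM, Tnnt2 1452 ± 1507, Tnni3 1116 ± 1243, Tnnc1 648 ± 857 and Acta1 482 ± 552 (SD, n = 3). Actc1 was above Tnnt2 only in MOD 3, and the ranges of these neighbours overlapped. In MOD 1 and MOD 2 Actc1 (225 and 281 RPKM) was also below Tnni3 (494 and 306 RPKM). In MOD 2 Tnnc1 (151 RPKM) was below Acta1 (209 RPKM). The low genes were ordered differently: in XHT libraries Tnni1, Tnnt3 and Tnnt1 (2.10 ± 1.19, 2.04 ± 1.24 and 1.83 ± 0.19 RPKM) overlapped, whereas in MOD libraries Tnnt3 (11.6 ± 7.42 RPKM) was above Tnnt1 (1.89 ± 0.24) and Tnnt1 above Tnni1 (0.942 ± 0.396) in all 3. By deposited FPKM, Actc1 ranked 13, 13 and 12 among all genes in XHT 1, 2 and 3, against 268, 216 and 11 in MOD 1, 2 and 3.

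Ratios within a library, which do not depend on how libraries are scaled, showed the make-up of the thin filament transcripts. Tnnt3 made up 0.0149%, 0.0660% and 0.0218% of the reads of Tnnt3 and Tnnt2 together in XHT 1, 2 and 3, against 2.55% (95% Clopper-Pearson interval 2.30% to 2.82%), 2.34% (2.10% to 2.61%) and 0.0959% (0.0751% to 0.121%) in MOD 1, 2 and 3. The highest XHT value, in XHT 2, had an interval of 0.0505% to 0.0848%, which overlapped that of MOD 3. The intervals cover counting error only. Per length, the mean log2 ratio of Tnnt3 to Tnnt2 differed by -4.90, XHT minus MOD. The same difference was -5.42 for Tnni2 to Tnni3, -4.89 for Tnnc2 to Tnnc1, -2.60 for Tnnt1 to Tnnt2 and -1.80 for Tnni1 to Tnni3. Without MOD 3 these 5 differences were -6.47, -6.61, -6.54, -3.49 and -2.39 in the same order. The sizes for Tnni2 and Tnnc2, which had 0 to 3 counts per XHT library, depended on the 0.5 added to each count: adding 5 gave -3.87 for Tnni2 and -3.67 for Tnnc2. Tnni2 held 0.00295%, 0.00573% and 0% of the reads of Tnni2 and Tnni3 in XHT 1, 2 and 3. In MOD 1, 2 and 3 it held 0.278% (95% Clopper-Pearson interval 0.172% to 0.425%), 0.221% (0.110% to 0.396%) and 0.0201% (0.00870% to 0.0397%). The intervals of XHT 1 (up to 0.0107%) and XHT 2 (up to 0.0168%) overlapped that of MOD 3. In 4 of these 5 ratios, Tnni1 to Tnni3 excepted, every XHT library was below every MOD library, with p = 0.1 (exact two-sided permutation test, n = 3 each; 0.15 adjusted over 9 ratios), which is the smallest p this design allows and cannot reach 0.05. Such a ratio also falls when only the cardiac partner rises: Tnnt1 had a fitted log2 fold change of -0.05 and Tnnt2 of 2.07. Tnni1 to Tnni3 separated the groups, also with an exact permutation p = 0.1, only through the added 0.5. By the counts themselves Tnni1 held 0.0885% of the pair's reads in XHT 1, against 0.0881% in MOD 3, so the groups overlapped, and with nothing added the exact p was 0.2 at a difference of -1.80.

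Between the sarcomeric actins, Acta1 held 15.0%, 21.6% and 19.4% of the reads of the pair in XHT 1, 2 and 3, against 33.9%, 41.7% and 19.7% in MOD 1, 2 and 3. MOD 3 again sat within the XHT range, and MOD 1 and MOD 2 had the larger skeletal share. The log2 ratio of Acta1 to Actc1 per length differed by -0.98, XHT minus MOD (exact two-sided permutation p = 0.2, n = 3 each; 0.225 adjusted), and by -1.42 without MOD 3.

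The proportions among the cardiac genes varied less between the XHT libraries than between the MOD libraries. Tnnt2 per Tnni3 was 1.12, 1.17 and 1.25 in XHT 1, 2 and 3, against 1.26, 1.78 and 1.25 in MOD 1, 2 and 3, a log2 difference of -0.26 (exact two-sided permutation p = 0.1, n = 3 each; 0.15 adjusted). Tnnc1 per Tnni3 was 0.739, 0.600 and 0.684 in XHT, against 0.316, 0.494 and 0.643 in MOD (exact p = 0.2; 0.225 adjusted). Actc1 per Tnni3 was 1.07, 1.10 and 1.13 in XHT, against 0.456, 0.921 and 1.72 in MOD, so the MOD libraries spread to both sides of the XHT ones (exact p = 0.7; 0.7 adjusted). Without MOD 3 the log2 differences were -0.34 for Tnnt2, 0.77 for Tnnc1 and 0.76 for Actc1, each per Tnni3. Whether the spread of these ratios differed between the groups was not tested.

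**Figure D3:**
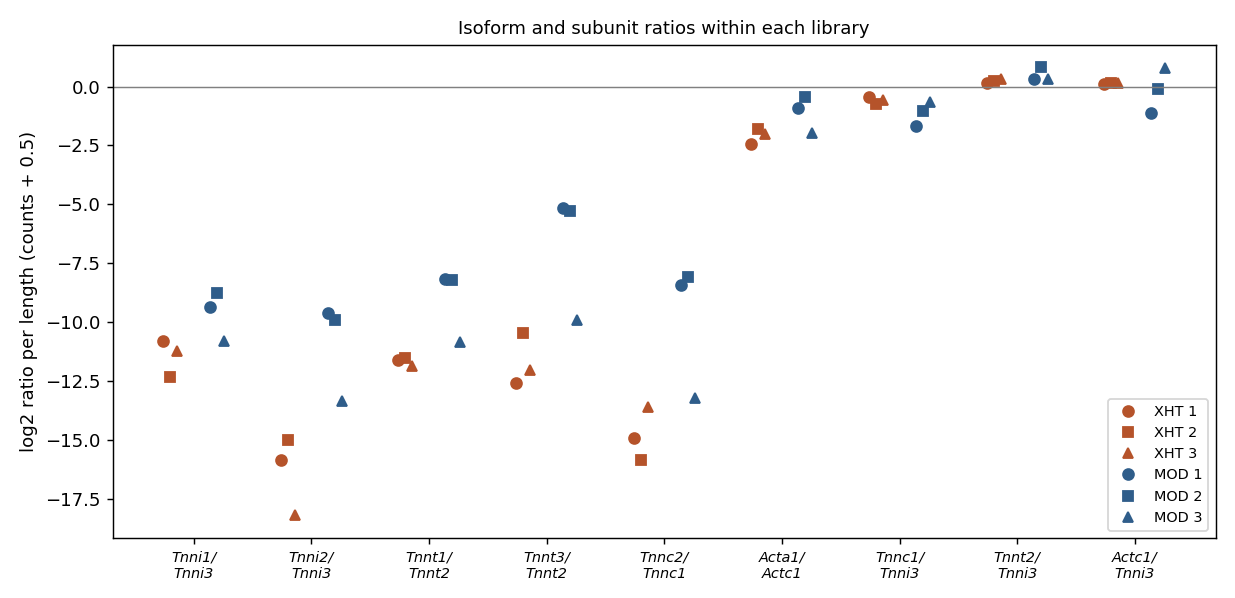
Log2 ratio per length of 1 gene to its partner within each library (counts plus 0.5), with the XHT libraries left of the MOD libraries. The 5 ratios of a skeletal or slow form to its cardiac partner on the left are lower in all XHT libraries, for Tnni1 to Tnni3 only through the added 0.5, while the actin ratio and 2 of the 3 ratios among cardiac genes on the right overlap between the groups.

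Set against the 13 cardiomyocyte genes of the same library, the cardiac thin filament genes differed much less between the groups than in CPM. The mean log2 ratio to that list differed, XHT minus MOD, by 0.25 for Tnnc1 (exact two-sided permutation p = 0.2, n = 3 each), -0.29 for Tnni3 (p = 0.2), -0.54 for Tnnt2 (p = 0.2) and 0.01 for Actc1 (p = 0.9), and all 4 overlapped between the groups. Acta1 differed by -0.98 relative to the list (exact p = 0.1), with its log2 ratio at -0.62, 0.18 and 0.20 in XHT 1, 2 and 3, against 0.47, 1.55 and 0.68 in MOD 1, 2 and 3. The 5 slow and fast forms differed by -2.09 (Tnni1), -3.14 (Tnnt1), -4.64 (Tnnc2), -5.45 (Tnnt3) and -5.71 (Tnni2), each with all XHT libraries below all MOD libraries. For these 5 and for Acta1 the exact p was 0.1 (0.167 adjusted over 10 genes), the smallest the design allows. The list itself ran higher in XHT, with a median log2 fold change of 2.22, against -0.02 for all tested genes. A gene that is level in CPM, or rises less than the list, therefore falls in this ratio. In CPM, Tnnt1 had a fitted log2 fold change of -0.05 and Tnni1 of 1.15. The share of all genes that separate in this ratio was not computed. Without MOD 3 the differences were 0.33 for Tnnc1, -0.43 for Tnni3, -0.78 for Tnnt2, 0.33 for Actc1 and -1.09 for Acta1, and between -7.25 (Tnnt3) and -2.82 (Tnni1) for the slow and fast forms. With 5 added to each count, those of Tnni2 and Tnnc2 were -4.16 and -3.42.

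Fibroblast and macrophage markers differed between the groups. The 6 fibroblast genes, none of them at 0 in any library, summed to 1661 to 4272 CPM in XHT libraries and 21361 to 59576 CPM in MOD libraries, and 5 of 6 fell, among them the collagen gene Col1a1 with a log2 fold change of -5.99 ± 1.29 (edgeR adjusted p = 0.0199). The 6 macrophage genes, none at 0, summed to 285 to 400 CPM in XHT and 595 to 847 CPM in MOD libraries, and 4 of 6 fell. With all libraries 16.1% of all tested genes were lower. Without XHT 1 neither list had a call, and without XHT 3 the fibroblast list had none. The fibroblast list had 1 call (Lum) without MOD 1 and 2 (Lum and Postn) without MOD 2. In this order, those fits called 0.0267%, 1.92%, 2.55% and 3.87% of all genes lower. Of the 13 cardiomyocyte genes 2 rose by edgeR with all libraries (Des and Ryr2), against 12.4% of all tested genes. Without XHT 2 (9.81%) 1 rose, Ryr2. The number was 0 without XHT 1, XHT 3, MOD 1 or MOD 2 (0.0267%, 0.986%, 0.87% and 1.54% of all genes), and 13 without MOD 3 (23.3%). With all libraries the DESeq2 Wald test called 8 of the 13 higher (18.8% of all genes), and the edgeR fit with a replicate block also called 8 (14.5%). Of 4 smooth muscle genes, none at 0, 2 fell (Acta2 and Tagln), with sums of 400 to 651 CPM in XHT and 815 to 1538 CPM in MOD libraries, neither call was made without XHT 1, XHT 3, MOD 1 or MOD 2, and only Tagln was called without XHT 2. Of 4 endothelial genes, none at 0, 0 were called by edgeR with all libraries. An unadjusted edgeR p under 0.05 was found for 2 (Kdr and Tek), against 21.1% of all tested genes higher. DESeq2 called those 2 higher (18.8% of all genes), and 3 rose by edgeR without MOD 3 (23.3%). The part of these differences in the troponin and actin results was not tested.

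Skeletal muscle marker genes were counted as well, 16 of which were in the table. The neonatal myosin gene Myh8 and the satellite cell gene Pax7 had no read in any library, and Myod1 had 1 read, in MOD 2 only. The fast myosin Myh1 had 0, 18 and 4 counts in XHT 1, 2 and 3, against 7, 5 and 9 counts in MOD 1, 2 and 3. The list summed to 24.1, 26.0 and 18.2 CPM in XHT 1, 2 and 3, against 20.1, 24.0 and 47.4 CPM in MOD 1, 2 and 3. The calsequestrin gene Casq1 carried much of that sum, with 33.3 CPM in MOD 3. Without Casq1, left out after its values were seen, the other 15 genes summed to 8.11, 12.4 and 11.4 CPM in XHT 1, 2 and 3, against 15.0, 18.6 and 14.04 CPM in MOD 1, 2 and 3. The groups separated only after that choice, and Myl1, given below, made up a large part of the MOD sums. Of the 5 tested genes, 4 had a log2 fold change below 0 and 1, Actn3, above 0 (1.86 ± 0.63, edgeR adjusted p = 0.0633). By the edgeR test 1 of these 5 fell, against 16.1% of all tested genes. It was the light chain gene Myl1, with a log2 fold change of -1.20 ± 0.37 (edgeR adjusted p = 0.0475). That call was made in only 3 of 12 alternatives: total-count scaling, the DESeq2 Wald test and the fit without MOD 3. Other skeletal genes went the other way in these fits. The DESeq2 Wald test called Actn3 higher (18.8% of all genes), and the fit without MOD 3 called Casq1 higher (23.3%). Actn3 had 15, 16 and 29 counts in XHT 1, 2 and 3, against 11, 8 and 2 in MOD 1, 2 and 3. It passed the count filter only through its XHT counts. Myl1 measured 2.33, 4.02 and 5.10 CPM in XHT 1, 2 and 3, against 8.75, 11.3 and 6.33 CPM in MOD 1, 2 and 3. The part of skeletal muscle genes in the Tnnt3 result was not tested.

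**Figure D4:**
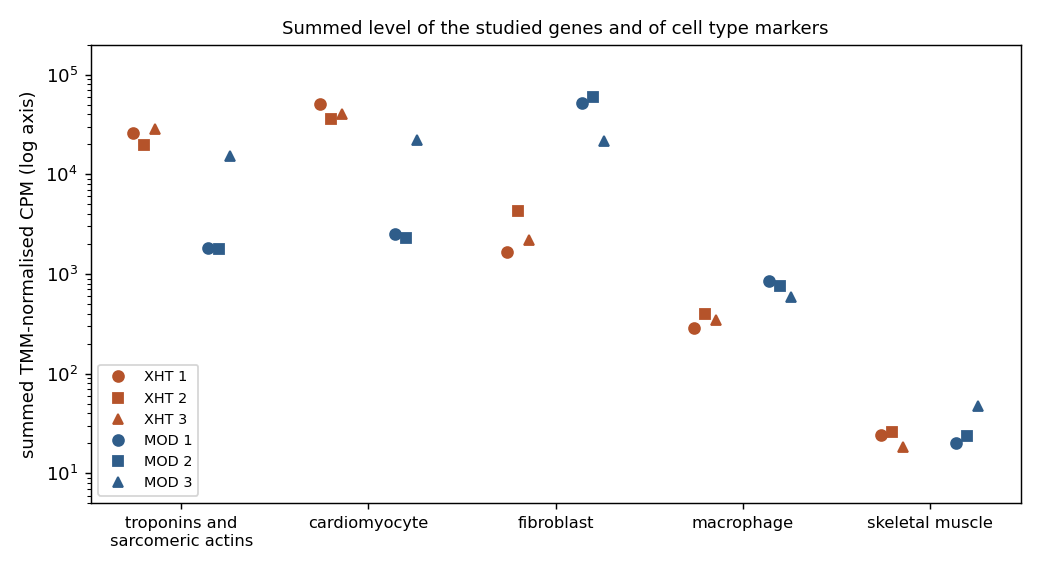
Summed TMM-normalised CPM on a log axis of the 10 troponin and sarcomeric actin genes and of 4 marker lists, 1 point per library, with XHT left of MOD. The troponin and actin sum and the cardiomyocyte sum are both lowest in MOD 1 and MOD 2 with MOD 3 between those and the XHT libraries, fibroblast and macrophage sums are lower in every XHT library, and the skeletal muscle sum stays between 18.2 and 47.4 CPM.

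Other genes of the thin filament were counted in the same fit. Of 12 tested partner genes 1 rose, Cfl2, an actin-severing cofilin of muscle (log2 fold change 1.57 ± 0.32, edgeR adjusted p = 0.0180), and 1 fell, Tpm2, a tropomyosin also made in smooth muscle (-1.92 ± 0.39, adjusted p = 0.0176). Tpm1, the main cardiac tropomyosin, measured 6462, 4487 and 6787 CPM in XHT 1, 2 and 3, against 725, 757 and 3263 CPM in MOD 1, 2 and 3, and did not pass (1.90 ± 0.70, adjusted p = 0.0781). With all libraries 12.4% of all tested genes were higher and 16.1% lower. Neither call was made without XHT 1, XHT 3, MOD 1 or MOD 2, fits that called at most 1.54% of all genes higher and 3.87% lower. Without MOD 3, 8 of 13 rose and 1 fell, in a fit where 23.3% of all genes were higher and 22.9% lower. Among those 8 was Lmod2, with 42, 10 and 17 counts in XHT 1, 2 and 3, against 0, 0 and 2 in MOD 1, 2 and 3. It entered that fit only through its XHT counts, so its rise there is not a call. The DESeq2 Wald test with all libraries called 5 of the 12 higher, Tpm1 among them, and 1 lower (Tpm2). It called 18.8% of all genes higher and 18.9% lower. The median log2 fold change of the 12 genes by edgeR was 1.43, against -0.02 for all tested genes.

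The actins outside the sarcomere ran opposite to Acta1 and Actc1 in their fitted values. Of these 4, Actb (cytoplasmic; -1.86 ± 0.40, edgeR adjusted p = 0.0195), Acta2 (smooth muscle; -1.27 ± 0.34, adjusted p = 0.0344) and Actg2 (smooth muscle; -1.56 ± 0.46, adjusted p = 0.0428) fell, and Actg1 (cytoplasmic; -0.96 ± 0.30, adjusted p = 0.0520) did not pass. With all libraries 16.1% of all tested genes were lower. None of the 4 was called without XHT 1, XHT 3, MOD 1 or MOD 2, fits that called 0.0267%, 1.92%, 2.55% and 3.87% of all genes lower. Without XHT 2 (14.2% of all genes lower) 2 were called, and all 4 fell without MOD 3 (22.9%). The DESeq2 Wald test with all libraries also called all 4 lower (18.9%). The summed level of the 4 was 643, 1163 and 970 CPM in XHT 1, 2 and 3, against 2798, 3509 and 2119 CPM in MOD 1, 2 and 3.

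Of 8 genes for factors known to act on these promoters, 3 rose: Tead1, which binds the MCAT core (1.91 ± 0.32, edgeR adjusted p = 0.0132), Mef2d, of the MEF2 family (1.40 ± 0.30, adjusted p = 0.0208), and Myocd, the coactivator of serum response factor (1.89 ± 0.50, adjusted p = 0.0325). Tead1 measured 15.2, 11.7 and 21.5 CPM in XHT 1, 2 and 3, against 3.00, 4.50 and 5.35 CPM in MOD 1, 2 and 3. The 3 of 8 stand beside 12.4% of all tested genes higher. No gene of the list was called without XHT 1, XHT 3 or MOD 1, fits that called 0.0267%, 0.986% and 0.87% of all genes higher. Without MOD 2 (1.54% of all genes higher) 1 was called, Tead1, and 5 rose without MOD 3 (23.3%). Gata4 had a log2 fold change of 0.04 ± 0.18 (adjusted p = 0.864). Binding of these factors was not measured.

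The profiles of the 8 tested genes across the 6 libraries were compared by the root mean square distance of log2 CPM after centring each gene on its own mean. Tnni3 and Tnnt2 were closest among these 8 genes at a distance of 0.22, then Tnnc1 and Actc1 at 0.30, and Tnnt3 and Actc1 were farthest at 3.49. Outside the 10 genes, the nearest profiles were Adssl1 to Tnnc1 (0.0970), Rragd to Tnni3 (0.104), Ptgfr to Tnnt2 (0.0963), Myl3 to Actc1 (0.152) and Rtn4rl2 to Acta1 (0.181). Tnni1 was nearest to Epm2a (0.184), Tnnt1 to Vps54 (0.0290) and Tnnt3 to Timp1 (0.282), an inhibitor of metalloproteinases. These distances describe 6 libraries that share the split between groups and the position of MOD 3.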

How the data were processed

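RNA from 6 rat myocardial libraries was selected on oligo(dT) beads, made into dUTP-marked libraries with molecular identifiers in the adapters and sequenced paired-end, per the labels' protocols. The authors deposited whole-number counts per gene, FPKM values, group means on a signal scale, and log2 fold changes with p-values, per the file headers. The submitters' processing notes name featureCounts 1.5.0-p3, HISAT2 2.0.5, DESeq2 1.16.1 and StringTie 1.3.3b. The genome build, the use of strand and any collapsing of identifiers are not stated there. The deposited FPKM and signal values were not tested, and the authors' log2 fold changes and p-values were used only where named.

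The 10 genes and the gene lists were chosen with earlier results of these data known. Deposited counts were fitted with edgeR 4.0.16 under R 4.3.3 (filterByExpr with minimum count 10 and minimum total 15, TMM scaling, robust quasi-likelihood fit, Benjamini-Hochberg threshold 0.05, 14488 genes tested). The SE is the absolute log2 fold change over the square root of F. Totals were 16550007 to 17724689 counts, so 3 counts, the most a count of 0 allows, were 0.148 to 0.204 CPM. CPM, RPKM and profile distances used TMM-scaled libraries, with a prior count of 2 for log2 CPM. Ratios within a library used counts plus 0.5 and exact two-sided permutation tests in SciPy 1.17.1. Libraries differed by far more than sampling noise (chi-square over its degrees of freedom at least 42.6 in every pair). The fit was tested on simulated counts. DESeq2 1.42.0, other scalings, no filter, a replicate block and leaving out each library were tried. Named genes were the 10 genes, up to 4 genes of lowest p per further list with skeletal markers that had reads, and the nearest profiles. Other genes, chosen after their values were seen, were Tpm1, Lmod2, Gata4, Lsp1, Prr33, Lad1, Dnaaf3 and skeletal markers without reads. Ttn, Nebl, Pecam1, Myh2 and Myh4 were not analysed here.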

Additional observations from a re-analysis of the deposited data

How the results depend on the processing

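With MOD 3 at 6.37 to 17.3 times the other MOD libraries for Tnni3, Tnnc1 and Actc1, the number of genes called depended on single libraries: leaving 1 out gave 4 to 3487 genes higher and 4 to 3421 lower in XHT, against 1792 and 2336 with all 6. Among the troponin and actin genes it gave 0 to 5 higher and 0 to 2 lower; one of those 2 is Tnni2, which passed the count filter only through its MOD counts. Without XHT 1 the counts were 4 and 4, without XHT 3 148 and 288, without MOD 1 128 and 375, without MOD 2 227 and 570, and without MOD 3 3487 and 3421. Scaling by total counts gave 925 higher and 4320 lower and shifted the median gene to a log2 fold change of -0.42, against -0.02 with TMM; relative to that shift the 8 genes kept their direction. The DESeq2 Wald test gave 2718 higher genes, 3 of them troponins. The log2 fold change of Tnnt1 ranged between -0.11 and 0.052 when 1 library was left out, and was above 0 without XHT 2 (0.041) and MOD 1 (0.052); the cause was not tested. A replicate block, which pairs libraries by number, gave 2101 genes higher and 2309 lower, 14.5% and 15.9% of those tested, with 3 of the troponin genes higher: Tnnc1 3.42 (adjusted p = 0.0342), Tnni3 2.85 (0.0326) and Tnnt2 2.58 (0.0388). The labels do not say that the numbers pair the libraries. Deviations of same-numbered libraries correlated by -0.07, 0.25 and 0.12, against -0.24 to 0.15 for libraries of different number. So few correlations, from groups of 3, cannot decide whether the libraries were paired. All 72 alternatives for the isoform ratios and all 80 for the ratios to the cardiomyocyte list moved by less than 1 SD between replicates, a test that large SDs in MOD make easy to pass. For these ratios the replicate block always returns the main difference, so those alternatives could not move. Over the alternatives for single genes, 11 calls were gained and 4, all of Tnnt3, were lost. Counts under 100 limit Tnni1, Tnnt1, Tnni2 and Tnnc2 in every library. They also limit Tnnt3 in XHT 1, 2 and 3 (17, 61 and 28 counts) and in MOD 3 (72 counts).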

Other observations

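Genes that mark the atrium were also measured, since the part of the heart sampled is not given. Myl7, the atrial regulatory light chain, had 3.19, 57.4 and 45.0 CPM in XHT 1, 2 and 3, against 0.158, 0.445 and 0.566 CPM in MOD 1, 2 and 3. By edgeR it was the 1 of 4 atrial genes that rose with all 6 libraries (log2 fold change 6.47 ± 1.12 SE, edgeR adjusted p = 0.0136). With all libraries 12.4% of all tested genes were higher. Myl7 had 48, 914 and 661 counts in XHT 1, 2 and 3, against 3, 9 and 11 in MOD 1, 2 and 3. It passed the count filter only through its XHT counts, and MOD 1 had no more than the 3 counts that a count of 0 allows. The size of this change is therefore uncertain, and the call was not made without XHT 3 or MOD 1. Nppa, the atrial natriuretic peptide gene, had 612, 1304 and 2107 CPM in XHT 1, 2 and 3, against 397, 394 and 858 CPM in MOD 1, 2 and 3. Sln (2.98 ± 1.06, edgeR adjusted p = 0.0718), Myl4 (1.49 ± 0.55, 0.0789) and Nppa (1.29 ± 0.55, 0.111) did not pass with all libraries. The DESeq2 Wald test called all 4 higher, against 18.8% of all genes. Without MOD 3 edgeR called 2 higher (Myl7 and Nppa), against 23.3%.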
